A study of Mus musculus with 12 samples.

Results

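The 8 genes Lox, Loxl1, Loxl2, Fbn1, Fn1, Postn, Tnc and Sparc encode proteins that build or crosslink the extracellular matrix, and their chromatin accessibility was followed through 5 groups of mouse skin cells with ATAC-seq, an assay that maps open DNA by where a transposase can insert into it. A peak was given to a gene when its midpoint lay inside that gene, or within 50 kb of it, and no other protein-coding gene of mm10 was nearer. This gave 168 of the 177240 listed peaks: 41 for Tnc, 37 for Fbn1, 32 for Fn1, 18 for Sparc, 14 each for Postn and Loxl1, 11 for Lox and 1 for Loxl2. All 168 peaks and all 8 genes passed the filter on low counts, as did 177238 peaks and 18107 genes of the whole tables.

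The tumour groups are Lgr5 Epcam- (1 sample), Lgr5 Epcam+ (2 samples) and K14 Epcam+ (1 sample), and the normal groups are hair follicle (HF, 1 sample) and interfollicular epidermis (IFE, 1 sample) of wild-type mice. Epcam is an adhesion molecule on the surface of epithelial cells, and its sign gives the sorted fraction. The Lgr5 tumours carry Lgr5CreER and the K14 tumour K14CreER, an inducible Cre recombinase driven by the promoter of Lgr5, a gene of hair follicle stem cells, or of K14, a keratin gene of basal keratinocytes. All tumours also carry floxed p53 and a Rosa-YFP reporter. All mice were female and of mixed strain, and no age is given in the labels. Cells were stained for CD45, CD31, CD140a and Epcam before sorting. Nothing in the labels says whether the Lgr5 Epcam+ samples came from separate mice, so the spread between them may be technical. Each of the other groups is a lone sample, which the tests take to vary as that pair does.

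Lysyl oxidases such as Lox, Loxl1 and Loxl2 oxidise lysines of collagen and elastin so that the fibres become crosslinked. Fibronectin (Fn1) and fibrillin-1 (Fbn1) are fibrillar glycoproteins that cells bind and on which other matrix proteins assemble, while periostin (Postn), tenascin-C (Tnc) and Sparc are matricellular proteins, which modulate how cells attach to the matrix. In skin these genes are known mainly from dermal fibroblasts, and several are widely used as markers of the mesenchymal state that carcinoma cells can enter in an epithelial to mesenchymal transition, the subject named in the series title.

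Start sites were known for Fbn1, Postn, Tnc and Sparc, which are the genes of the set with an entry in the table of promoters from RefSeq (GRCm38.p6). The windows below run from 250 bases before a start to 50 bases after it and are shown because each start lies in a peak described below. They are Fbn1 at chr2:125506389-125506688 on the minus strand, the first Postn start at chr3:54359017-54359316 and the second at chr3:54360857-54361156, both on the plus strand, the outer of the Tnc starts at chr4:64046966-64047265 on the minus strand and Sparc at chr11:55420031-55420330 on the minus strand. Capitals mark matches on either strand to TATAAA (the TATA box), CCAAT (the CAAT box), GGGCGG (the GC box), CAGGTG (the E-box bound by Zeb and Snail factors) and TGTGGT (Runx).
Fbn1: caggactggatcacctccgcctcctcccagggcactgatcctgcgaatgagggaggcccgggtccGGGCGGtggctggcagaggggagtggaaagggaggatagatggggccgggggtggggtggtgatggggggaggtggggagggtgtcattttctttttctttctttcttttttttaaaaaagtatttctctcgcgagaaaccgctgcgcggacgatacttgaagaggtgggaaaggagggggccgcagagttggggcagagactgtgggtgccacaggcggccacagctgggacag
Postn first start: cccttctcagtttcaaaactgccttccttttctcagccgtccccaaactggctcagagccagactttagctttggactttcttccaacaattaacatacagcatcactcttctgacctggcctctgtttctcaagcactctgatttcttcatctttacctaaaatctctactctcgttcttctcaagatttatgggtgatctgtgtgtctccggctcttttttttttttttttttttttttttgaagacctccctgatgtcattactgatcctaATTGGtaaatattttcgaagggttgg
Postn second start: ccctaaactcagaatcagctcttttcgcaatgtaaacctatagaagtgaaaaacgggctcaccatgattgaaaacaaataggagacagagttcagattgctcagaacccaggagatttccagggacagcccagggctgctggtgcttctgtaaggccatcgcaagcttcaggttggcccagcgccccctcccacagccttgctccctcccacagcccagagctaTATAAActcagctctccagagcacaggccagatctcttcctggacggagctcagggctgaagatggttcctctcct
Tnc: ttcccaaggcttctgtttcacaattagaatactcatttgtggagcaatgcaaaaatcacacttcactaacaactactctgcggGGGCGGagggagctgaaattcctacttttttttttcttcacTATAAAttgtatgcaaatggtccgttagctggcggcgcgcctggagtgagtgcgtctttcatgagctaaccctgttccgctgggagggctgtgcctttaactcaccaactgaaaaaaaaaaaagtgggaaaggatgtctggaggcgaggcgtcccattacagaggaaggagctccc
Sparc: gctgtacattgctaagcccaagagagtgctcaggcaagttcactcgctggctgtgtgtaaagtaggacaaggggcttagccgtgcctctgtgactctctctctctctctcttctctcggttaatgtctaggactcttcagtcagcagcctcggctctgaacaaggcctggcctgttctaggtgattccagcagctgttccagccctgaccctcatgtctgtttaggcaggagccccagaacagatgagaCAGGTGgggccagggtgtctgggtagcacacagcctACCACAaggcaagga
Counted from the 5′ end of the window, the second Postn start had TATAAA at base 225, and the first had CCAAT on the opposite strand at base 275 and no TATAAA. Tnc had GGGCGG at base 84 and TATAAA at base 125, Fbn1 had GGGCGG at base 66, and Sparc had CAGGTG at base 250 and TGTGGT, on the opposite strand, at base 286. TGANTCA (AP-1) and GGAATG (Tead), which were searched in the same way, had no match in these windows. Of all 32851 RefSeq promoter windows, 13.6% hold TATAAA, 37.4% CCAAT, 35.7% GGGCGG, 20.2% CAGGTG, 16.8% TGTGGT, 7.81% TGANTCA and 14.7% GGAATG. The marked matches do not overlap one another.

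Counts in peaks ran from 32086654 in HF to 62941406 in Lgr5 Epcam+ sample 1. Levels are given as CPM, the usual depth-scaled count, with the TMM-scaled total over the peaks on chromosomes 1 to 14 as the depth, and a gene's level is the sum over its peaks. On chromosomes 15 to X the paired-end runs alone were used, because the K14 Epcam+ single-end run held 8.37% of its counts on chromosomes 16 to X while its paired-end run held 14.8%. Among the 8 genes this touches Lox, on chromosome 18. In bulk samples, fewer cells of a type and less accessibility per cell cannot be told apart.

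Summed over all 8 genes, accessibility was highest in Lgr5 Epcam- cells, at 1454 CPM, against 966 and 1083 CPM in the Lgr5 Epcam+ samples, 848 CPM in K14 Epcam+, 823 CPM in HF and 591 CPM in IFE. Of the 168 peaks, 91 (54.2%) had their highest level in Lgr5 Epcam-, where 22.9% of all peaks did. The genes differed widely in this respect: 10 of 11 Lox peaks, 11 of 14 Loxl1 peaks, 25 of 32 Fn1 peaks, 23 of 37 Fbn1 peaks and 9 of 14 Postn peaks were highest there, but only 8 of 41 Tnc peaks and 4 of 18 Sparc peaks. The ratio of the highest to the lowest sample ran from 9.64 for Lox to 1.31 for Sparc. Per kb of peak, Lox had 12.8 CPM in Lgr5 Epcam-, the highest of the 8 genes there, but 1.33 CPM in Lgr5 Epcam+ sample 1, the lowest. Sparc, with 6.62 to 8.69 CPM per kb over the 6 samples, was the most even.

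**Figure D1:**
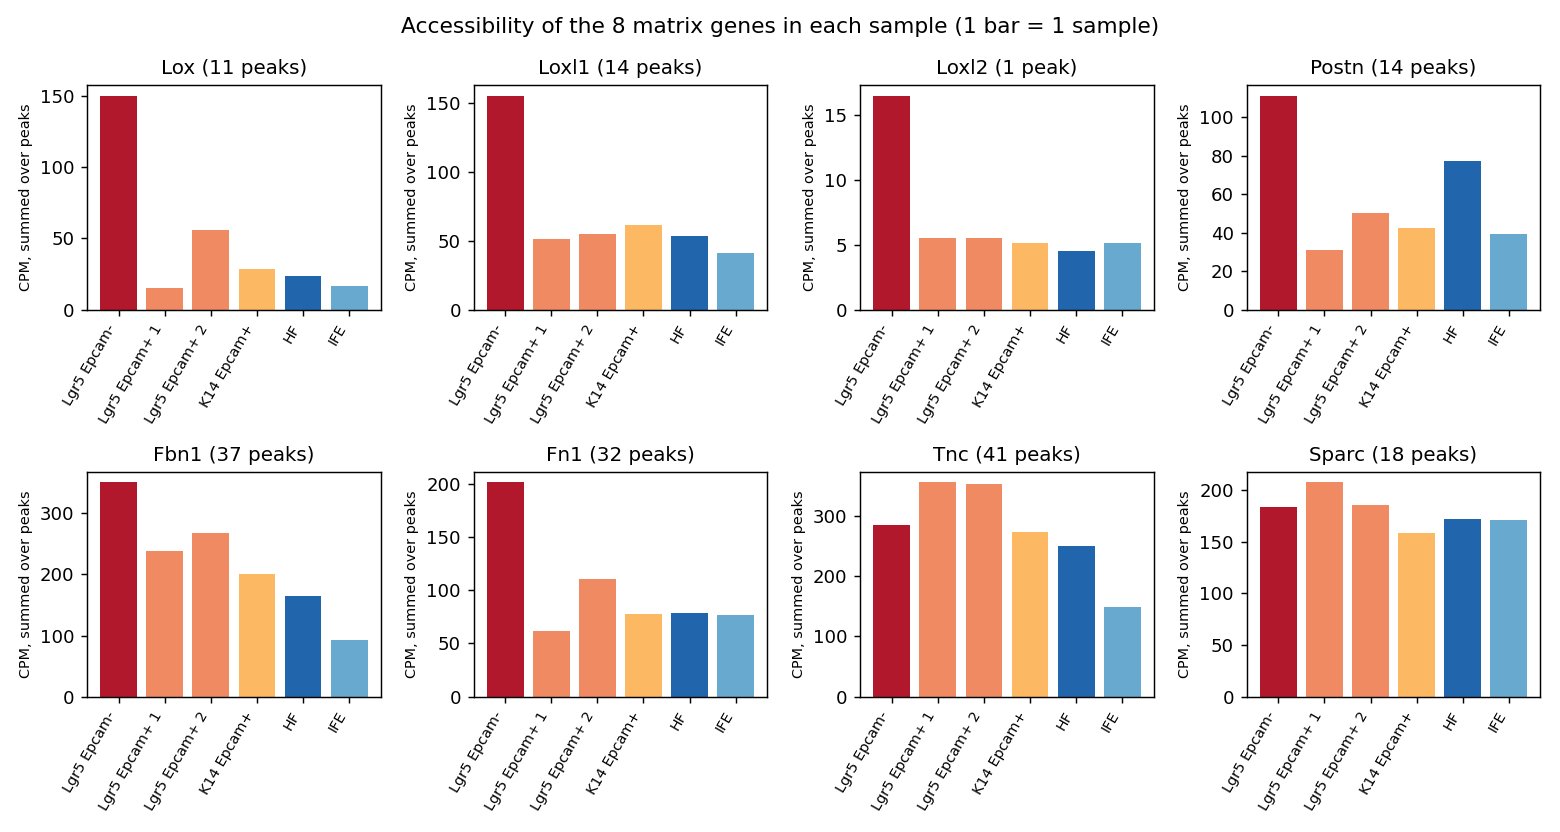
Level of each of the 8 genes in CPM, summed over its peaks (vertical axis, starting at 0, a scale of its own in each panel), in the 6 samples (horizontal axis); a bar is 1 sample, so there are no error bars. Lox, Loxl1, Loxl2, Fn1, Fbn1 and Postn are highest in Lgr5 Epcam-, and Tnc and Sparc in Lgr5 Epcam+ sample 1.

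The first comparison set the Epcam-negative cells of the Lgr5 tumours against the Epcam-positive ones. Loxl1 and Postn rose in Lgr5 Epcam-, and no gene of the set fell. Lox, Loxl2 and Fn1 had log2 ratios above 1 that did not pass the adjustment over all genes, while Fbn1, Tnc and Sparc lay within 0.5 of 0. All log2 ratios and adjusted p-values of this comparison are from edgeR's quasi-likelihood test with Benjamini-Hochberg adjustment at a threshold of 0.05, and each is given with its standard error. By that test 2 of 8 genes were called higher, against a background of 1.89% of all genes, and 0 were called lower, where the background is 2.14%. The median log2 ratio was 1.34 over the 8 genes and -0.11 over all genes. At an unadjusted p under 0.05 there were 5 of the 8, where 18.7% of all genes were.

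Among the crosslinking enzymes, Lox, the founding lysyl oxidase, had 150 CPM in Lgr5 Epcam-, against 15.6 and 55.6 CPM in Lgr5 Epcam+ samples 1 and 2. The Lgr5 Epcam+ samples thus lay far apart from each other. K14 Epcam+ had 28.5 CPM, HF 23.3 CPM and IFE 16.3 CPM, all below the Lgr5 Epcam- sample. The log2 ratio of Lgr5 Epcam- over Lgr5 Epcam+ was 2.08 ± 0.58 with an adjusted p of 0.0808 by edgeR. It was 1.43 without Lgr5 Epcam+ sample 1 and 3.26 without sample 2, values that have no test, and by DESeq2 Lox passed (adjusted p = 0.0151). Relative to the sample's own median on chromosomes 1 to 14, the log2 median count of all peaks within 5 Mb of Lox was 0.14 in Lgr5 Epcam-. It was -0.68 in Lgr5 Epcam+ sample 1 and -0.08 in sample 2. When each sample was centred on that local median the log2 ratio was 1.70 (adjusted p = 0.0452).

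Loxl1, which crosslinks elastin, had 155 CPM in Lgr5 Epcam-, against 51.6 and 54.8 CPM in the Lgr5 Epcam+ samples. The Lgr5 Epcam+ samples were close to each other here, and K14 Epcam+ (61.7 CPM), HF (53.5 CPM) and IFE (41.5 CPM) were near them. Its log2 ratio was 1.55 ± 0.28 (adjusted p = 0.0240). The local log2 median of all peaks within 5 Mb of Loxl1, taken as for Lox, was -0.04 in Lgr5 Epcam-. It was -0.4 and -0.54 in Lgr5 Epcam+ samples 1 and 2. Loxl2, an oxidase of collagen, was read from a single peak at chr14:69691726-69693400, inside the gene. That peak had 16.5 CPM in Lgr5 Epcam- and 5.53 and 5.48 CPM in Lgr5 Epcam+, with K14 Epcam+ at 5.15 CPM, HF at 4.55 CPM and IFE at 5.14 CPM. The other 5 samples thus lay within a narrow band below Lgr5 Epcam-. The log2 ratio was 1.58 ± 0.43 with an adjusted p of 0.0752 for the gene; under total-count scaling it passed (adjusted p = 0.0367).

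Of the fibrillar glycoproteins, Fn1 had 202 CPM in Lgr5 Epcam-, against 61.3 and 111 CPM in Lgr5 Epcam+. K14 Epcam+, HF and IFE had 77.7, 78.5 and 76.6 CPM, levels that lay between those of the Lgr5 Epcam+ samples. The log2 ratio was 1.23 ± 0.37 (adjusted p = 0.102), was 0.86 without Lgr5 Epcam+ sample 1 and 1.72 without sample 2, and passed with DESeq2 (adjusted p = 0.0481). Fbn1, the backbone of microfibrils, had 351 CPM in Lgr5 Epcam- and 238 and 268 CPM in Lgr5 Epcam+, with a log2 ratio of 0.47 ± 0.31 (adjusted p = 0.497). Lgr5 Epcam- was the highest sample for both genes.

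Of the matricellular genes, Postn had 111 CPM in Lgr5 Epcam-, against 31.1 and 50.2 CPM in Lgr5 Epcam+. The Lgr5 Epcam- sample was above both. Its log2 ratio of 1.45 ± 0.33 passed (adjusted p = 0.0433), but not with the paired-end runs alone (adjusted p = 0.0789), nor with the Epcam+ tumours as 1 group without Lgr5 Epcam+ sample 1 (1.27, adjusted p = 0.0564) or without K14 Epcam+ (1.45, adjusted p = 0.0651), fits added after the data were seen. Tnc had 285 CPM in Lgr5 Epcam- and 356 and 353 CPM in Lgr5 Epcam+ (log2 ratio -0.31 ± 0.32, adjusted p = 0.711). Sparc had 183 CPM in Lgr5 Epcam- and 207 and 185 CPM in Lgr5 Epcam+ (log2 ratio -0.10 ± 0.32, adjusted p = 0.925), a ratio that is above 0 under total-count scaling. For Tnc and Sparc the Lgr5 Epcam- sample was the lower one, by less than the spread the test assumes.

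Peak by peak, 46 of the 168 peaks (27.4%) were higher in Lgr5 Epcam-, against a background of 6.57% of all peaks, and 3 (1.79%) were lower, against 5.45%. The median log2 ratio was 0.92 over the 168 peaks and -0.04 over all peaks, and 124 of the 168 were above 0. Of the peaks called higher, 14 belonged to Fn1, 10 to Loxl1, 8 to Fbn1, 7 to Postn, 6 to Lox and 1 to Sparc, and none to Tnc or Loxl2. Apart from chr1:71652457-71653854, the Fn1 peaks called higher were low, with at most 1.80 CPM in either Lgr5 Epcam+ sample. Many of the called peaks of Fbn1, Loxl1 and Postn were low in Lgr5 Epcam+ too. In samples 1 and 2, chr2:125420509-125421509 of Fbn1 had 0.530 and 0.841 CPM. There chr9:58309922-58310922 of Loxl1 had 0.622 and 1.10 CPM, and chr3:54412984-54413984 of Postn 0.530 and 1.10 CPM. Others were more open, such as chr2:125368188-125369525 of Fbn1, with 3.87 and 5.37 CPM. All 11 Lox peaks and all 14 Postn peaks had ratios above 0, as did 30 of 32 Fn1 peaks, 13 of 14 Loxl1 peaks and 29 of 37 Fbn1 peaks. Calls were made inside genes (29 of 91 peaks), at gene ends (4 of 9) and outside genes (13 of 68). With DESeq2 the share called higher was 11.3% of the 168 peaks, where 2.91% of all peaks were called higher and 5.42% lower. In the single-end runs 31.6% of counts lay in peaks in Lgr5 Epcam-, against 43.7% and 38.6% in Lgr5 Epcam+ samples 1 and 2. In the paired-end runs these shares were 37.85%, 51.1% and 45.7%. The part of this difference in the peak calls was not tested.

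These peak calls depend on 1 library. When Lgr5 Epcam- was set against the 3 Epcam+ tumour samples taken as 1 group, an alternative chosen after the data were seen, 51 peaks were higher, and 6.73% of all peaks. Without Lgr5 Epcam+ sample 1 that fit called 0 of the 168 peaks, while it called 0.18% of all peaks higher and 0.0333% lower. Without sample 2 it called 50 higher, and 6.4% of all peaks, and without K14 Epcam+ 31, and 4.13% of all peaks. At the level of genes the same fits called 5 of the 8 higher with all samples, 3 without Lgr5 Epcam+ sample 1, 5 without sample 2 and 2 without K14 Epcam+. Of all genes they called 3.30%, 2.03%, 3.88% and 2.52% higher, in that order.

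**Figure D2:**
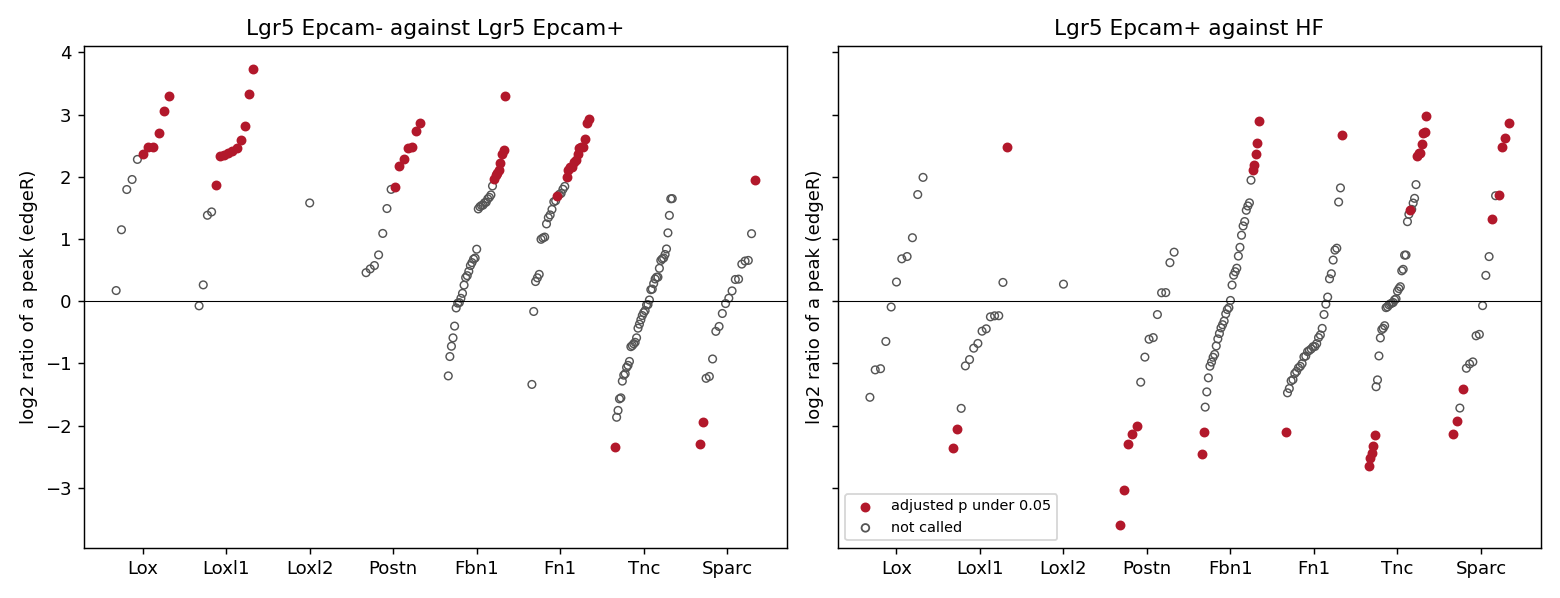
Log2 ratio of every peak (vertical axis) by gene (horizontal axis, peaks of a gene in rising order) for Lgr5 Epcam- against Lgr5 Epcam+ (left) and Lgr5 Epcam+ against HF (right), which share the Lgr5 Epcam+ samples; a point is 1 peak, filled where edgeR's adjusted p is under 0.05. On the left 46 peaks are called higher and 3 lower, and no Tnc peak is called higher; on the right 20 are higher and 18 lower.

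The peak with the largest ratio of the set lay inside Loxl1, at chr9:58298985-58299985. It had 19.2 CPM in Lgr5 Epcam-, against 1.08 and 1.80 CPM in Lgr5 Epcam+, 2.11 CPM in K14 Epcam+, 1.69 CPM in HF and 1.26 CPM in IFE, so that 5 samples were low and 1 was high (log2 ratio 3.74 ± 0.59, adjusted p = 0.00212). The peak at the Loxl1 end of highest coordinate, chr9:58312379-58313817, had 21.9 CPM in Lgr5 Epcam- and 3.59 and 4.82 CPM in Lgr5 Epcam+ (log2 ratio 2.38 ± 0.55, adjusted p = 0.0140). The corresponding end of Lox, chr18:52529169-52530379, had 31.7 CPM in Lgr5 Epcam-, and 2.15 and 9.19 CPM in Lgr5 Epcam+ (2.49 ± 0.70, adjusted p = 0.0317). K14 Epcam+ (2.94 CPM), HF (2.78 CPM) and IFE (2.37 CPM) were close to the lower of those. That of Fn1, chr1:71652457-71653854, had 40.5 CPM in Lgr5 Epcam- and 7.53 and 17.6 CPM in Lgr5 Epcam+ (1.69 ± 0.47, adjusted p = 0.0303). All 3 of these gene-end peaks were highest in Lgr5 Epcam-.

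The Lox locus held its most open peak outside the gene, at chr18:52558492-52559532, with 32.8 CPM in Lgr5 Epcam- and 3.73 and 13.2 CPM in Lgr5 Epcam+ (1.96 ± 0.66, adjusted p = 0.0692). A neighbouring peak, chr18:52560106-52561106, had 9.55 CPM in Lgr5 Epcam-, and 0.965 CPM in each Lgr5 Epcam+ sample (3.30 ± 0.62, adjusted p = 0.00531). It thus lacked the spread between those samples seen at the most open peak. Inside Fn1, chr1:71612599-71613599 had 4.06 CPM in Lgr5 Epcam- and 0.461 and 0.609 CPM in Lgr5 Epcam+ (2.92 ± 0.60, adjusted p = 0.00813). Inside Fbn1, chr2:125479871-125480871 had 7.21 CPM in Lgr5 Epcam- and 0.484 and 0.986 CPM in Lgr5 Epcam+ (3.30 ± 0.60, adjusted p = 0.00465), although the gene as a whole did not pass. Past the far end of Postn, chr3:54435978-54436978 had 6.26 CPM in Lgr5 Epcam- and 0.622 and 1.10 CPM in Lgr5 Epcam+ (2.86 ± 0.59, adjusted p = 0.00825). In each of these peaks Lgr5 Epcam- was above both Lgr5 Epcam+ samples.

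The 3 peaks called lower were 1 of Tnc and 2 of Sparc. The Tnc peak, inside the gene at chr4:63977115-63978519, had 4.63 CPM in Lgr5 Epcam- and 14.6 and 32.5 CPM in Lgr5 Epcam+ (-2.35 ± 0.66, adjusted p = 0.0319). It was also low in K14 Epcam+ (4.57 CPM), HF (4.52 CPM) and IFE (2.37 CPM), so the Lgr5 Epcam+ samples were the highest. The Sparc peak at chr11:55371695-55372734, past the far end of the gene, had 3.44 CPM in Lgr5 Epcam- and 15.8 and 18 CPM in Lgr5 Epcam+ (-2.29 ± 0.63, adjusted p = 0.0285). The other Sparc peak, chr11:55376069-55377576, had 2.25 CPM in Lgr5 Epcam- and 9.33 and 8.01 CPM in Lgr5 Epcam+ (-1.94 ± 0.51, adjusted p = 0.0244), but was highest in the normal samples, at 23.2 CPM in HF and 35.2 CPM in IFE.

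Markers of other cell types were read beside these results. Of 15 fibroblast and pericyte markers, 6 rose and 0 fell in Lgr5 Epcam- against Lgr5 Epcam+, with a median log2 ratio of 1.22. Of all genes 1.89% rose and 2.14% fell, with a median of -0.11. Col1a2 and Col3a1, fibrillar collagen genes, had log2 ratios of 3.04 ± 0.30 and 2.58 ± 0.29 (edgeR adjusted p = 0.00492 and 0.00785), and Rgs5, a pericyte gene, 2.72 ± 0.42 (adjusted p = 0.0182). Pdgfra, which encodes CD140a, did not pass, with 130 CPM in Lgr5 Epcam- and 91.4 and 85.7 CPM in Lgr5 Epcam+ (0.55 ± 0.29, adjusted p = 0.364). The summed level of the list was 1267 CPM in Lgr5 Epcam-, against 623 and 584 CPM in Lgr5 Epcam+, 666 CPM in K14 Epcam+, 692 CPM in HF and 677 CPM in IFE. No marker of the list was at 0 in any sample. Cspg4, a pericyte gene, had 154 CPM in Lgr5 Epcam- and 191 and 151 CPM in Lgr5 Epcam+, so not all of the list was higher. The part of fibroblasts or pericytes in the values of the 8 genes was not tested.

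Epithelial markers moved the other way: 7 of 14 fell and 0 rose, where 2.14% of all genes fell and 1.89% rose. Not all of the list was lower than both Lgr5 Epcam+ samples. Krt8 had 43.4 CPM in Lgr5 Epcam- and 54.7 and 22.65 CPM in Lgr5 Epcam+. Krt18 had 95.8 CPM in Lgr5 Epcam- and 125 and 54.0 CPM in Lgr5 Epcam+. The median log2 ratio of the epithelial list was -1.70, and its summed level was 1049 CPM in Lgr5 Epcam-, against 3805 and 2618 CPM in Lgr5 Epcam+. Epcam itself, the sorting marker, had 49.2 CPM in Lgr5 Epcam-, and 255 and 237 CPM in Lgr5 Epcam+ (-2.32 ± 0.33, adjusted p = 0.0154 by edgeR). Of 10 leukocyte markers and 10 endothelial markers, 0 passed in either direction, with medians of -0.39 and -0.02. Ptprc, which encodes CD45, had 77.4 CPM in Lgr5 Epcam- and 111 and 131 CPM in Lgr5 Epcam+. Pecam1, which encodes CD31, had 101 CPM in Lgr5 Epcam- and 227 and 211 CPM in Lgr5 Epcam+. Both had a lower value in Lgr5 Epcam- than in either Lgr5 Epcam+ sample, and neither gene passed (Ptprc -0.64 ± 0.31, adjusted p = 0.310, and Pecam1 -1.12 ± 0.33, adjusted p = 0.0961). These lists held markers that went the other way too. The leukocyte gene Csf1r had 40.9 CPM in Lgr5 Epcam- and 18.5 and 16.4 CPM in Lgr5 Epcam+. The endothelial gene Emcn had 66.1 CPM in Lgr5 Epcam- and 36.1 and 30.25 CPM in Lgr5 Epcam+.

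**Figure D3:**
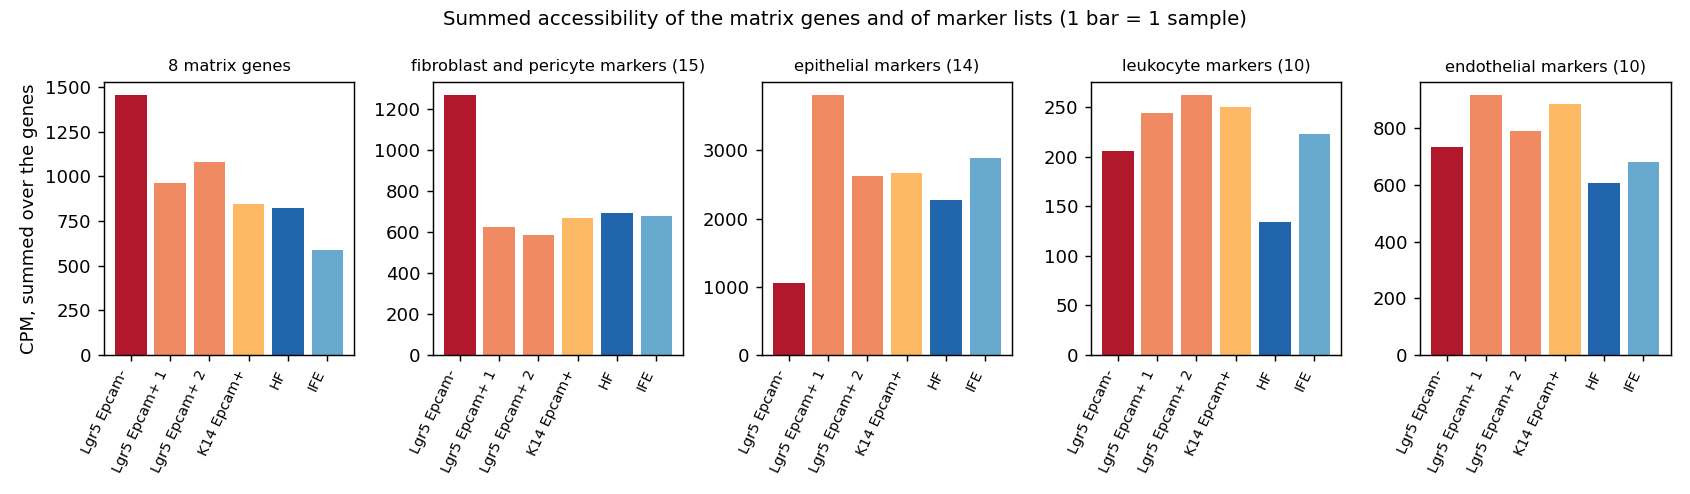
Summed CPM (vertical axis, starting at 0, a scale of its own in each panel) of the 8 matrix genes and of 4 marker lists, with the number of genes measured in brackets, in the 6 samples (horizontal axis); a bar is 1 sample. In Lgr5 Epcam- the matrix genes (1454 CPM) and the fibroblast and pericyte markers (1267 CPM) are at their highest and the epithelial markers (1049 CPM) at their lowest.

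The second comparison set the Epcam-positive tumour samples of both origins against both normal samples. Fbn1 was the 1 gene of 8 that rose, where 10.7% of all genes did, and 0 fell, where 6.68% did. The median log2 ratio was 0.21 over the 8 genes and 0.05 over all genes. Fbn1 had 238, 268 and 201 CPM in Lgr5 Epcam+ samples 1 and 2 and K14 Epcam+, against 164 CPM in HF and 92.6 CPM in IFE. All 3 tumour samples were above both normal ones (log2 ratio 0.87 ± 0.25, edgeR adjusted p = 0.0392). Without IFE the log2 ratio was 0.52 and did not pass (adjusted p = 0.332), nor did it without Lgr5 Epcam+ sample 2 (0.77, adjusted p = 0.0535) or after centring on the local median (0.58, adjusted p = 0.0596).

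Tnc followed the same order without passing. It had 356, 353 and 274 CPM in the Epcam+ tumour samples, against 250 CPM in HF and 148 CPM in IFE (0.69 ± 0.24, adjusted p = 0.0805), and it passed with DESeq2 (adjusted p = 0.0394) and without HF (1.14, adjusted p = 0.0151). For both genes the difference between HF and IFE was of the same order as that between tumour and normal samples. Lox (0.70 ± 0.48), Loxl1 (0.28 ± 0.22), Loxl2 (0.14 ± 0.35), Fn1 (0.08 ± 0.29), Sparc (0.04 ± 0.24) and Postn (-0.41 ± 0.26) had adjusted p-values of 0.300 to 0.927.

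Peak by peak the genes held changes in both directions that the sums hid. Of the 168 peaks 35 (20.8%) rose, against 15.2% of all peaks, and 19 (11.3%) fell, against 13.8%. The median was -0.06 over the 168 peaks and -0.01 over all peaks, so that as a group they lay near the background. Peaks that rose belonged to Tnc (13), Fbn1 (11), Sparc (7), Fn1 (2), Lox (1) and Loxl1 (1). Those that fell belonged to Tnc (5), Sparc (5), Postn (4), Fn1 (3), Fbn1 (1) and Loxl1 (1). The number higher was 23 without Lgr5 Epcam+ sample 1, where 9.19% of all peaks were higher, and 19 without IFE, where 9.80% were. The number lower was 8 without Lgr5 Epcam+ sample 1, where 6.31% of all peaks were lower, 11 without K14 Epcam+, where 10.5% were, and 9 without HF, where 11.1% were. In the single-end runs 43.7%, 38.6% and 32.8% of counts lay in peaks in Lgr5 Epcam+ samples 1 and 2 and K14 Epcam+. HF had 21.3% and IFE 26.2%. In the paired-end runs the shares were 51.1%, 45.7% and 38.7% in those tumour samples, and 27.5% in HF and 34.0% in IFE. The part of this difference in the calls of this and the other comparisons of tumour and normal samples was not tested.

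Markers of other cell types differed in this comparison too. Of the 15 fibroblast and pericyte markers 0 rose and 2 fell, and of the 14 epithelial markers 4 rose and 0 fell. Of the 10 leukocyte markers 2 rose and 2 fell, and of the 10 endothelial markers 4 rose and 2 fell. Of all genes 10.7% rose and 6.68% fell. The leukocyte gene Ptprc had 111, 131 and 99.9 CPM in the Epcam+ tumours, against 43.7 CPM in HF and 38.8 CPM in IFE (1.42 ± 0.24, edgeR adjusted p = 0.00585), and Epcam had 255, 237 and 230 CPM in the Epcam+ tumours, against 92.2 CPM in HF and 87.1 CPM in IFE (1.41 ± 0.23, adjusted p = 0.00550). Summed, the leukocyte markers had 244, 262 and 250 CPM in the Epcam+ tumours, against 135 CPM in HF and 223 CPM in IFE, and no marker was at 0. The part of other cell types in these results was not tested.

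The start of Fbn1 was more open in the tumours than in normal skin. Its peak, chr2:125505247-125506567, which overlaps the window printed above, had 22.1, 18 and 14.1 CPM in Lgr5 Epcam+ samples 1 and 2 and K14 Epcam+, against 3.45 CPM in HF and 2.73 CPM in IFE (2.45 ± 0.37, adjusted p = 0.000347 by edgeR). Lgr5 Epcam- had 30.9 CPM, the highest of the 6. The most open Fbn1 peak, chr2:125302056-125303166, at the opposite end of the gene, had 48.2, 57.8 and 31.9 CPM in the Epcam+ tumours, against 11.6 CPM in HF and 9.12 CPM in IFE (2.0 ± 0.24, adjusted p = 6.95e-05). In contrast chr2:125428790-125429876, inside the gene, had 4.42, 4.82 and 2.43 CPM in the Epcam+ tumours, against 19.9 CPM in HF and 8.51 CPM in IFE (-1.96 ± 0.44, adjusted p = 0.00467). That peak was highest in the normal samples and mostly in HF.

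Tnc showed the same pattern at its start, chr4:64046455-64047631, with 29.3, 28.5 and 22.7 CPM in the Epcam+ tumours, against 10.4 CPM in HF and 5.64 CPM in IFE (1.74 ± 0.30, adjusted p = 0.000795). Of 12 Tnc peaks upstream of the start 8 were higher and 1 lower, and of 8 past the far end 0 were higher and 2 lower. Of all peaks 15.2% were higher and 13.8% lower, and a difference by position was not tested. The largest ratio was at chr4:64077748-64078818, 31.3 kb upstream, with 25.2, 16.7 and 19.2 CPM in the Epcam+ tumours, against 2.65 CPM in HF and 1.76 CPM in IFE (3.21 ± 0.40, adjusted p = 8.85e-05). Its neighbour 29.6 kb upstream, chr4:64075997-64077182, the most open Tnc peak, had 26.0, 31.8 and 22.6 CPM in the Epcam+ tumours, against 5 CPM in HF and 5.07 CPM in IFE (2.34 ± 0.31, adjusted p = 0.000126). Both upstream peaks were open in Lgr5 Epcam- too, at 23.9 CPM for the farther and 35.1 CPM for the nearer.

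Other Tnc peaks were open mainly in normal skin. The peak 53.3 kb into the gene, chr4:63993009-63994307, had 3.32, 2.21 and 1.99 CPM in the Epcam+ tumours, against 15.1 CPM in HF and 7.33 CPM in IFE (-2.16 ± 0.46, adjusted p = 0.00333). A peak 6.29 kb upstream of the start, chr4:64052777-64053824, had 1.59, 2.12 and 1.29 CPM in the Epcam+ tumours and 11.7 CPM in HF, but 2.44 CPM in IFE (-1.79 ± 0.46, adjusted p = 0.00984). It was thus highest in HF, and so was chr4:63949587-63950713 past the far end of the gene, with 2.74, 4.99 and 2.05 CPM in the Epcam+ tumours, 22.2 CPM in HF and 4.49 CPM in IFE (-1.83 ± 0.47, adjusted p = 0.00990).

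Sparc, whose summed level was the most even of the 8, held peaks that moved in both directions. Of its 4 peaks upstream of the start 2 rose and 0 fell, and of its 9 peaks past the far end 1 rose and 5 fell; a difference by position was not tested. Near the start, 8.27 kb upstream, chr11:55427826-55428873 had 16.8, 12.8 and 13.5 CPM in the Epcam+ tumours, against 2.41 CPM in HF and 2.12 CPM in IFE (2.64 ± 0.41, adjusted p = 0.000429). Past the far end of the gene, 36.5 kb from the start, chr11:55382920-55384203 had 9.53, 10.8 and 7.84 CPM in the Epcam+ tumours, against 44.7 CPM in HF and 28.1 CPM in IFE (-1.99 ± 0.31, adjusted p = 0.000466). The upstream peak was low in both normal samples and the far peak high in both. The far peak that rose, chr11:55371695-55372734, described above, had 15.8, 18 and 9.95 CPM in the Epcam+ tumours, against 2.31 CPM in HF and 3.31 CPM in IFE (2.23 ± 0.46, adjusted p = 0.00278). The most open Sparc peak, 1.78 kb inside the gene at chr11:55417417-55419191, had 38.3, 30.5 and 21.5 CPM in the Epcam+ tumours, against 6.17 CPM in HF and 9.02 CPM in IFE (1.87 ± 0.29, adjusted p = 0.000481). The peak at the start, chr11:55419266-55420540, had 20.7, 18.5 and 14.9 CPM in the Epcam+ tumours, against 14.7 CPM in HF and 5.42 CPM in IFE (0.93 ± 0.33, adjusted p = 0.0427). Summed over peaks inside the gene alone, Sparc rose (1.12, adjusted p = 0.0136), while over all peaks within 50 kb the log2 ratio was 0.04.

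**Figure D4:**
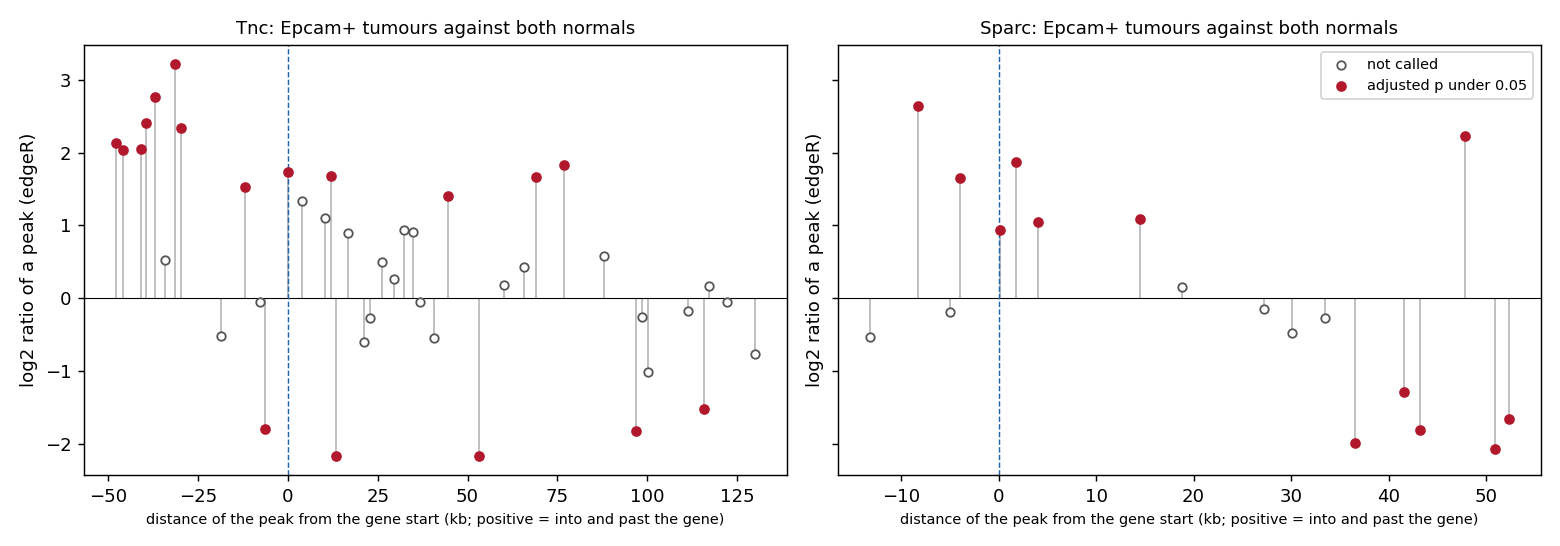
Log2 ratio of each Tnc peak (left) and Sparc peak (right) in the Epcam+ tumours against both normal samples (vertical axis), by distance from the gene start in kb (horizontal axis; negative is upstream, the dashed line is the start); filled points have an edgeR adjusted p under 0.05. Of 41 Tnc peaks 13 are higher and 5 lower, and of 18 Sparc peaks 7 are higher and 5 lower, the 5 lower Sparc peaks lying past the far end of the gene, where 1 higher peak lies too.

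At Postn the starts behaved differently. The peak at the second start, chr3:54360299-54361589, had 1.61, 3.02 and 2.28 CPM in the Epcam+ tumours, against 11.4 CPM in HF and 5.17 CPM in IFE (-1.74 ± 0.47, adjusted p = 0.0130 by edgeR). Lgr5 Epcam- had 12.8 CPM there, near the level of HF and higher than Lgr5 Epcam+ (2.48 ± 0.59, adjusted p = 0.0151). The peak at the first start, chr3:54357632-54359299, had 8.66, 9.48 and 11.5 CPM in the Epcam+ tumours, 8.24 CPM in HF and 4.49 CPM in IFE (0.75 ± 0.41, adjusted p = 0.194), and 19.3 CPM in Lgr5 Epcam-. The low level in Epcam+ tumours was thus seen at the second start and not at the first; the difference between the starts was not tested.

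Further into Postn, chr3:54362076-54363227 had 0.783, 0.725 and 0.966 CPM in the Epcam+ tumours, against 9.17 CPM in HF and 6.68 CPM in IFE (-3.19 ± 0.48, adjusted p = 0.000336), and 3.41 CPM in Lgr5 Epcam-. All 4 peaks inside Postn fell, and none of the 9 outside it passed, a difference by position that was not tested. Summed over peaks inside the gene alone, Postn fell in the Epcam+ tumours (-2.05, adjusted p = 0.00256), whereas over 50 kb it did not pass (-0.41 ± 0.26, adjusted p = 0.300). That value over 50 kb rests on HF: it was 0.07 without HF, and passed without IFE at -0.91 (adjusted p = 0.0265). Loxl1 had a peak outside the gene that rose, chr9:58275010-58276125, with 25.8, 24.2 and 21.7 CPM in the Epcam+ tumours, against 4.48 CPM in HF and 5.60 CPM in IFE (2.22 ± 0.32, adjusted p = 0.000265). Lgr5 Epcam- had 30 CPM there, little above the Epcam+ tumours, unlike at the Loxl1 peaks described above.

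Fn1 and Lox held few calls in this comparison. Inside Fn1, chr1:71621220-71622313 had 6.15, 18.2 and 3.60 CPM in the Epcam+ tumours, against 1.90 CPM in HF and 1.80 CPM in IFE (1.84 ± 0.55, edgeR adjusted p = 0.0217). Outside it, chr1:71683370-71684484 had 1.54, 1.31 and 1.35 CPM in the Epcam+ tumours, against 3.97 CPM in HF and 8.30 CPM in IFE (-2.05 ± 0.46, adjusted p = 0.00441). The rise at Fn1 was greatest in Lgr5 Epcam+ sample 2, and the fall was seen in all 3 tumour samples. The Lox peak that rose was its most open one, described above, with 3.73, 13.2 and 6.77 CPM in the Epcam+ tumours, against 2.57 CPM in HF and 2.16 CPM in IFE (1.68 ± 0.58, adjusted p = 0.0415).

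**Figure D5:**
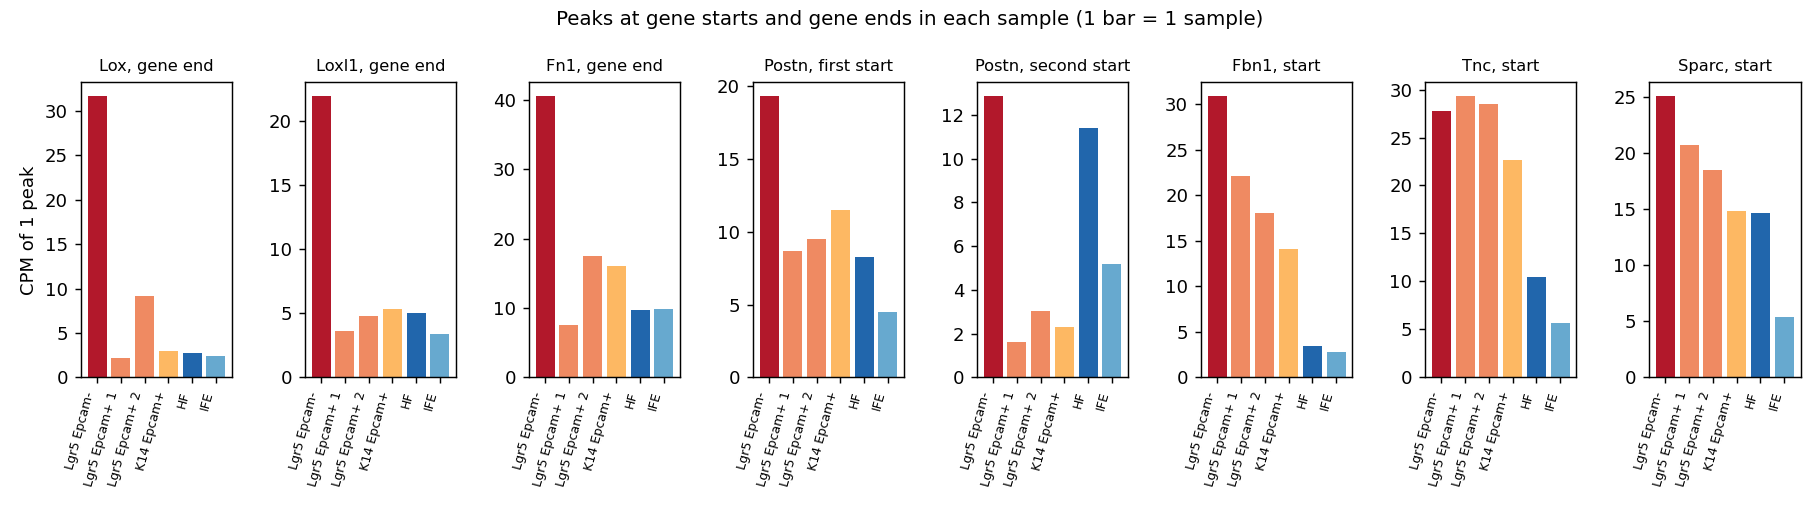
CPM of single peaks (vertical axis, starting at 0, a scale of its own in each panel) at the ends of highest coordinate of Lox, Loxl1 and Fn1 and at the starts of Postn, Fbn1, Tnc and Sparc, in the 6 samples (horizontal axis); a bar is 1 sample. The second Postn start is high in Lgr5 Epcam- (12.8 CPM) and HF (11.4 CPM), while the Fbn1 start is high in all tumour samples (14.1 to 30.9 CPM).

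The Lgr5 tumours were also set against hair follicle and the K14 tumour against interfollicular epidermis; these comparisons use samples of the pooled one above. In Lgr5 Epcam+ against HF, 0 of 8 genes passed in either direction with edgeR or with DESeq2, where 5.75% of all genes were higher and 2.57% lower with edgeR. Only Postn had an unadjusted p under 0.05, as 26.5% of all genes did, with 31.1 and 50.2 CPM in Lgr5 Epcam+ and 77.4 CPM in HF (-0.93 ± 0.33, adjusted p = 0.111). Postn passed under total-count scaling (-1.25, adjusted p = 0.0411) and over peaks within 10 kb (-1.52, adjusted p = 0.0145). Over peaks inside the gene Postn (-2.70, adjusted p = 0.00567) and Loxl1 (-1.19, adjusted p = 0.0355) fell and Sparc rose (1.40, adjusted p = 0.0333). The median log2 ratio was 0.23 over the 8 genes and 0.22 over all genes. Of the peaks 20 (11.9%) were higher, against 9.30% of all peaks, and 18 (10.7%) lower, against 7.41%. Higher peaks were those of Tnc (8), Fbn1 (5), Sparc (5), Fn1 (1) and Loxl1 (1), and lower ones those of Postn (5), Tnc (5), Sparc (3), Fbn1 (2), Loxl1 (2) and Fn1 (1).

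K14 Epcam+ against IFE sets 1 sample against 1, so no test was made. There and in the other comparisons of lone samples a gene was called by size, with a log2 ratio of at least 1 and of at least 0.5 in each sequencing run, and a peak with 2 and with 1 in each run. Fbn1 passed this rule, at 201 CPM in K14 Epcam+ and 92.6 CPM in IFE (log2 ratio 1.12), and no gene passed it downwards; 9.38% of all genes were past it upwards and 8.53% downwards. After centring on the local median Fbn1 did not pass (0.80), and over peaks inside the gene Postn passed downwards (-1.39). The next was Tnc, with 274 CPM in K14 Epcam+ and 148 CPM in IFE (0.88). Of the 168 peaks 13 were higher, against 7.42% of all peaks, and 5 lower, against 5.97%. The Fbn1 start was among the higher ones, with a log2 ratio of 2.34.

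The difference between these tumour changes, that of Lgr5 Epcam+ over HF minus that of K14 Epcam+ over IFE, was tested in the edgeR fit, a test added after the data were seen. No gene of the 18107 passed and 1 peak of the 177238 did, a peak of none of the 8 genes. Of the genes 1002 had an unadjusted p under 0.05, and none of the 8 was among them. Postn had the largest difference of the 8, -1.03 ± 0.52 (adjusted p = 0.778). Of the peaks, 8 of the 168 had an unadjusted p under 0.05, where 6.19% of all peaks did, and none passed the adjustment. DESeq2 was not run on this difference.

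Between Epcam-positive tumours of the 2 origins no difference at these genes passed, with K14 Epcam+ a lone sample. In Lgr5 Epcam+ against K14 Epcam+, 0 of 8 genes and 0 of 168 peaks passed with edgeR, and likewise with DESeq2. At an unadjusted p under 0.05 there were 0 genes and 6 peaks of the set, where 3.56% of all genes and 4.66% of all peaks were. The background was also near 0: 0.00552% of all genes higher and 0.00552% lower, 0.00113% of all peaks higher and 0.00395% lower. Log2 ratios of the genes ran from -0.21 ± 0.29 for Loxl1 to 0.37 ± 0.32 for Tnc. Those of the 168 peaks ran more widely, from -1.685 to 2.571. Lox had 15.6 and 55.6 CPM in Lgr5 Epcam+ and 28.5 CPM in K14 Epcam+, which lay between them.

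In normal skin, HF against IFE is again 1 sample against 1. No gene passed the rule of size, which 1.76% of all genes passed upwards and 3.25% downwards. Postn came nearest, at 77.4 CPM in HF and 39.3 CPM in IFE (log2 ratio 0.98), followed by Fbn1 (0.83) and Tnc (0.75). Postn passed under total-count scaling (1.11), with the paired-end runs alone (1.06), within 10 kb (1.03) and inside the gene (1.24). Fbn1 passed with the paired-end runs alone (1.02) and Tnc within 10 kb (1.15). The median was 0.44 over the 8 genes and -0.18 over all genes. Of the 168 peaks 7 were higher in HF, against 1.72% of all peaks, and 0 were lower, against 0.749%; 125 had ratios above 0. The 7 were 3 of Tnc, 2 of Fbn1, 1 of Postn and 1 of Sparc. The largest, chr2:125290204-125291351 beyond the end of Fbn1, had 18.6 CPM in HF and 2.44 CPM in IFE (2.90), and the Postn peak, chr3:54371945-54373212, 12.7 CPM in HF and 1.98 CPM in IFE (2.65).

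Set directly against HF, in a comparison that shares its samples with those above, Lgr5 Epcam- was past the rule of size upwards for 5 of 8 genes, against 11.8% of all genes, and downwards for none, against 7.37%. The log2 ratios were 2.68 for Lox, 1.84 for Loxl2, 1.54 for Loxl1, 1.36 for Fn1 and 1.09 for Fbn1, and 0.52 for Postn, 0.19 for Tnc and 0.09 for Sparc, which did not pass. Fbn1 fell just short when scaled by total counts (0.95) or centred on the local median (0.97). Of the 168 peaks 32 were higher, against 7.51% of all peaks, and 8 (4.76%) lower, against 6.59%. Postn had 111 CPM in Lgr5 Epcam-, 31.1 and 50.2 CPM in Lgr5 Epcam+ and 77.4 CPM in HF, so HF lay between the tumour fractions.

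Other matrix genes were counted from 3 lists that hold none of the 8. Of 18 further crosslinking and collagen-modifying enzymes, 4 rose and 0 fell in Lgr5 Epcam- against Lgr5 Epcam+, among them Pcolce, an enhancer of procollagen processing (2.32 ± 0.44, edgeR adjusted p = 0.0255), Adamts2, a procollagen peptidase (2.16 ± 0.30, adjusted p = 0.0154), and Plod2, a lysyl hydroxylase (1.78 ± 0.38, adjusted p = 0.0355). The median of the list was 0.05, against -0.11 over all genes, of which 1.89% rose and 2.14% fell. The remaining lysyl oxidases did not pass, Loxl3 at 0.07 ± 0.46 and Loxl4 at -0.02 ± 0.50. Of 17 elastic fibre and microfibril genes, 1 rose, Mfap5, a microfibril component (1.54 ± 0.34, adjusted p = 0.0385), and 0 fell, with a median of 0.26. Of 23 matricellular and adhesive glycoprotein genes, 0 passed in either direction, with a median of 0.16.

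In the Epcam+ tumours against both normals, 4 of 18 crosslinking genes rose and 2 fell, where 10.7% of all genes rose and 6.68% fell. The transglutaminase gene Tgm2 (2.11 ± 0.25, edgeR adjusted p = 0.00194) and the peroxidasin gene Pxdn (1.83 ± 0.26, adjusted p = 0.00319) rose, and P3h1, a prolyl hydroxylase, fell (-1.30 ± 0.27, adjusted p = 0.0124). Of the 17 elastic fibre genes 3 rose and 0 fell: Fbln5, an elastin-binding fibulin (1.35 ± 0.24, adjusted p = 0.00708), Efemp2, a fibulin (1.31 ± 0.39, adjusted p = 0.0460), and Ltbp1, which binds latent TGF-beta (1.23 ± 0.25, adjusted p = 0.0112). Of the 23 matricellular and adhesive genes 6 rose and 0 fell, the largest changes being in Spp1 or osteopontin (2.11 ± 0.25, adjusted p = 0.00195), Sparcl1 (1.89 ± 0.27, adjusted p = 0.00373) and the tenascin gene Tnn (1.49 ± 0.23, adjusted p = 0.00417). The medians of the 3 lists were 0.38, 0.21 and 0.41, against 0.05 over all genes. In Lgr5 Epcam+ against HF 4 of 18 crosslinking, 1 of 17 elastic fibre and 4 of 23 matricellular genes rose, and 1 matricellular gene fell, where 5.75% of all genes rose and 2.57% fell.

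Over the 6 samples, Fn1 was the gene of the set whose log2 CPM was most like that of Lox (Pearson r = 0.976), and Loxl1 and Loxl2 were most like each other (r = 0.95). Fbn1 and Tnc were most like each other too (r = 0.857). Sparc had no close partner, the nearest being Tnc (r = 0.544). Of all genes, Dpysl3 was most like Lox (r = 0.993), Gc most like Loxl1 (r = 0.996), Ttc28 most like Loxl2 (r = 0.996), Cfap161 most like Postn (r = 0.999), Olfml2b most like Fbn1 (r = 0.998), Fbll1 most like Fn1 (r = 0.996), Ggact most like Tnc (r = 0.993) and Abi1 most like Sparc (r = 0.999). With 6 samples that share their scaling, and 18107 genes to choose from, these values are a description.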

How the data were processed

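ATAC-seq was made of 6 samples of mouse skin cells, each with 1 run of single reads and 1 of read pairs. The authors deposited 12 tables of raw counts per peak over 1 shared list of 177240 peaks. Per the submitters' processing notes, Bowtie2, HOMER, bedtools and HTSeq were used on mm10; tool versions, filters on reads and the way peaks were called: not given in the sources used here. For each sample both runs were summed on chromosomes 1 to 14, and the paired-end run alone was used on chromosomes 15 to X. Summed counts in peaks were 32086654 to 62941406 per sample. Peaks were given to the nearest protein-coding gene within 50 kb on mm10 (146458 peaks, 82.6%), without regard to strand, and counts were summed per gene.

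The test was edgeR 4.0.16 under R 4.3.3 with limma 3.58.1. It followed a low-count filter (filterByExpr, minimum count 10), with TMM scaling on chromosomes 1 to 14, a robust quasi-likelihood fit of 5 groups over 6 samples with 1 residual degree of freedom, and Benjamini-Hochberg adjustment over the whole table at 0.05. The biological coefficient of variation was 0.33 for peaks and 0.23 for genes. The standard error is the log2 ratio over the root of the F value. Comparisons of lone samples used a rule of size (prior count 2) and no test. The scripts were tested on simulated data.

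The genes of the set and the other lists were chosen with earlier results of these data known. Fkbp10, Vtn, Cd8a and Fcer1g had no peak. Peaks were named by rule: per gene the most open peak, those at its starts (at its ends where no start was known), and per comparison the called peak with the largest ratio in each direction. Of other lists up to 3 called genes per comparison were named, and per gene of the set the most alike genes by Pearson r. Epcam, Pdgfra, Ptprc, Pecam1, Loxl3, Loxl4, Cspg4 and Krt8 were added after their values were seen. The alternatives were total-count scaling, DESeq2 1.42.0, no filter, 1 kind of run, both runs on all chromosomes, samples centred on the median of peaks within 5 Mb, peaks within 10 kb or inside the gene, 3 groups in the fit, and leaving out samples. A further element of the tumour genotype is not reported here.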

Additional observations from a re-analysis of the deposited data

How the results depend on the processing

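Values are shares of the 168 peaks (of 96 peaks with a midpoint in the gene and of 124 within 10 kb in those settings), or log2 ratios. DESeq2 gave 11.3% higher in Lgr5 Epcam- against Lgr5 Epcam+ and 7.14% lower in Lgr5 Epcam+ against HF. In the fit with the Epcam+ tumours as 1 group, chosen after seeing the data, 1.19% were lower in Lgr5 Epcam- with all samples, 0% higher and 0% lower without Lgr5 Epcam+ sample 1, 0.60% lower without sample 2 and 0% lower without K14 Epcam+. Peaks inside genes gave 1.04% lower in Lgr5 Epcam- against Lgr5 Epcam+, 2.08% higher in K14 Epcam+ against IFE and in HF against IFE, and 2.08% lower in Lgr5 Epcam- against HF; peaks within 10 kb gave 0.81% lower in Lgr5 Epcam- against Lgr5 Epcam+, and 4.03% higher and 1.61% lower in K14 Epcam+ against IFE. The paired-end runs gave 11.9% higher and 5.36% lower in K14 Epcam+ against IFE and 6.55% higher in HF against IFE; the single-end runs gave 1.79% lower and 2.38% higher. Leaving out a sample, the Epcam+ tumours against both normals gave 11.3% to 19.1% higher and 4.76% to 11.9% lower. The cause of these shifts was not tested, save that fewer peaks or samples enter some settings.

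Ratios that changed sign were of genes not called under the stated settings. Total-count scaling moved the median of all genes from 0.22 to -0.11 in Lgr5 Epcam+ against HF, where it gave -0.059 for Loxl2, -0.188 for Fn1 and -0.144 for Sparc; it gave 0.088 for Sparc in Lgr5 Epcam- against Lgr5 Epcam+, -0.096 for Loxl2 and -0.031 for Fn1 in Lgr5 Epcam+ against K14 Epcam+, and -0.032 for Loxl2, -0.087 for Fn1 and -0.131 for Sparc in the Epcam+ tumours against both normals. In Lgr5 Epcam+ against HF, Loxl1 was at 0.030 with DESeq2, 0.047 with paired-end runs and 0.371 with local centring. Sparc in Lgr5 Epcam- against Lgr5 Epcam+ was at 0.116 within 10 kb, and at 0.092 and 0.002 with the Epcam+ tumours as 1 group without Lgr5 Epcam+ sample 1 and sample 2. Local centring gave 0.214 for Loxl1, 0.029 for Postn and -0.110 for Fn1 in Lgr5 Epcam+ against K14 Epcam+, and -0.085 for Loxl2 in the Epcam+ tumours against both normals. In that comparison Lox was at -0.063 and Fn1 at -0.007 with single-end runs, Sparc at -0.047 with paired-end runs, Loxl1 at -0.338 within 10 kb and -0.494 inside the gene, and, leaving out a sample, Postn ran from -0.912 without IFE to 0.065 without HF and Fn1 from -0.159 without Lgr5 Epcam+ sample 2 to 0.282 without sample 1.

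With 1 Lgr5 Epcam+ sample left out, the fit of 5 groups has no residual degree of freedom, so those ratios have no test. No paired analysis was possible because the sample titles do not name the mouse or tumour that a sample came from. Every group but Lgr5 Epcam+ is 1 sample, which limits the precision.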
